A study of Mus musculus with 19 samples.

Results

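The genes of the transforming growth factor beta (TGF-beta) and bone morphogenetic protein (BMP) family were followed across 5 cell populations of mouse hindlimb muscle. A list of 47 genes was read out by symbol from the deposited table of 23846 genes, and all 47 were found there. They were the TGF-beta ligands (3 genes), BMP and growth differentiation factor (GDF) ligands (10), activin and myostatin ligands (4), secreted antagonists (8), the protease gene Bmp1, latent TGF-beta binding proteins (4), type I receptors (6), type II receptors (4), co-receptors (2) and the Id and inhibitory Smad genes (5). Of these, 43 reached 1 FPKM in at least 3 of the 19 libraries and were tested. Gdf5, Gdf6, Grem1 and Acvr2b did not, with highest values of 0.164, 1.12, 0.977 and 0.921 FPKM in any library. FPKM are fragments scaled to a library's mapped total and to transcript length, so levels of different genes can be set side by side.

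Poly(A) RNA came from C57BL/6J mice raised to 8 weeks and given 2.5 mg tamoxifen a day for 5 days, with 10 days of washout before the experiments. Every group shared this treatment, and the labels name no transgene. LinNegSca1Pos (n = 3 libraries) was the lineage-negative, Sca1-positive fraction, which the labels call mesenchymal progenitors, and LinNegSca1Neg (n = 4) was the lineage-negative, Sca1-negative fraction. LinPos (n = 4) was the lineage-positive fraction of endothelial and blood-derived cells, and LinNeg (n = 4) the lineage-negative fraction before the division by Sca1. Whole (n = 4) carries the title of a mononuclear cell suspension, while the table's columns name it whole muscle, and which of these was sequenced was not settled here. Whether each replicate is another animal is not stated, and p-values therefore describe only the spread between these libraries, which may be technical.

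Ligands of this family are secreted as dimers and bind a pair of type II receptors, which phosphorylate type I receptors and through them the Smad transcription factors. TGF-beta itself is stored in the matrix in a latent complex with LTBP proteins, whereas follistatin, noggin and the chordins hold activins and BMPs away from their receptors. In muscle, myostatin restrains fibre growth, BMP signals favour it, and TGF-beta drives matrix production by fibroblastic cells. Id1, Id2 and Id3 are direct BMP targets, and Smad6 and Smad7 feed back on the receptors.

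The 300-base windows around the transcription start of 4 members are shown because 3 of them, Gdf10, Tgfb1 and Mstn, peaked in different populations and the other, Smad6, is a feedback gene whose level differed between library sets. Capitals mark matches to CANNTG (an E-box, read by myogenic factors), GGCGCC (a motif of BMP-responsive elements), TGANTCA (an AP-1 motif) and GTCTAGAC (the palindrome bound by Smad proteins). All 4 motifs read the same on both strands, and the second CANNTG match of Mstn overlaps its TGANTCA match. Sequences are from RefSeq on GRCm38.p6, 5′ to 3′ along the gene's own strand, with the window starting 250 bases before the start site.
Gdf10, chr14:33923337-33923636, plus strand: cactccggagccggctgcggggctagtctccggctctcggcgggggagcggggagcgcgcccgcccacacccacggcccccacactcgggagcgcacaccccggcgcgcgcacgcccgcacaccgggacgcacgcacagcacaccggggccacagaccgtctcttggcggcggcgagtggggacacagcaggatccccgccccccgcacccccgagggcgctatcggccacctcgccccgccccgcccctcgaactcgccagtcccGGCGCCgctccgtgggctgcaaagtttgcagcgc
Tgfb1, chr7:25686752-25687051, plus strand: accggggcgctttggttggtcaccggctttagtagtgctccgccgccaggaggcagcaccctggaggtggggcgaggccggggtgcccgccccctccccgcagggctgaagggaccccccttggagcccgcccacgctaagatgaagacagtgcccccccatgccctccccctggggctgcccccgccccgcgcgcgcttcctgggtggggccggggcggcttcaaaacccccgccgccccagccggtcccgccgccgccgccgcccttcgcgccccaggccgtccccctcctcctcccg
Mstn, chr1:53061390-53061689, plus strand: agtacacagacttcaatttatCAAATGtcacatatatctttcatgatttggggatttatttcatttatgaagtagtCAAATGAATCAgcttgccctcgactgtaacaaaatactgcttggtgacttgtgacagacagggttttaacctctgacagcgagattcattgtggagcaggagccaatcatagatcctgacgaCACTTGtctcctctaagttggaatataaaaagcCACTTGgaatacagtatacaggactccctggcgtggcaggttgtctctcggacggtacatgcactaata
Smad6, chr9:64022010-64022309, minus strand: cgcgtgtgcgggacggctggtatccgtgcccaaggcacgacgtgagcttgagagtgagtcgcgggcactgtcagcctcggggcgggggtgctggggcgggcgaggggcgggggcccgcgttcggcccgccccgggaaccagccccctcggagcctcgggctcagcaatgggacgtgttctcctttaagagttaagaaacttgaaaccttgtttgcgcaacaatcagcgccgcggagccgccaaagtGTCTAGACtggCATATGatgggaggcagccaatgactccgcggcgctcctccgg
Mstn held 4 CANNTG matches, Smad6 held 1, and neither Gdf10 nor Tgfb1 held one. CANNTG was present in 72.3% of the 32851 promoter windows of the same table, at a mean of 1.39 matches. GGCGCC, found once in the Gdf10 window, was present in 11.9% of windows. TGANTCA, found once in the Mstn window, was present in 7.81%. GTCTAGAC, found once in the Smad6 window, was present in 0.213%. Windows were available for 32 of the 47 members, 39 windows in all. A match is a description of these letters only, and no binding was measured.

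Libraries of a group were not interchangeable. Replicates 1 and 2 of LinPos, LinNeg and LinNegSca1Neg (set A) stood apart from replicates 3 and 4 (set B), and the labels name no batch. Fits of set A or set B keep all LinNegSca1Pos and Whole libraries, which have no sets, so both fits share them. Endothelial markers of the blood vessel wall, Eng among them, summed to 696 to 2092 FPKM over the 4 LinPos libraries, against 72.9 to 106 FPKM in LinNeg. In LinPos, 12 of 12 markers were at a mean of 1 FPKM or more. Neutrophil genes summed to 63334 FPKM in LinPos replicate 3, against 5624 to 12234 FPKM in the other LinPos libraries. The defining mesenchymal marker Pdgfra averaged 101 ± 15.8 FPKM in LinNegSca1Pos and 7.20 ± 0.505 FPKM in LinNegSca1Neg, where satellite cell markers summed to 738 to 1084 FPKM, tenocyte markers to 2588 to 4690 FPKM and Schwann cell markers to 2821 to 4073 FPKM. LinNegSca1Pos replicate 2 had a summed tenocyte marker level of 644 FPKM, against 254 and 209 FPKM in replicates 1 and 3. The value that 1 fragment is worth varied up to 4.92 times between libraries, and was largest in LinNegSca1Pos replicate 3 and Whole replicate 3, so low values are least precise there. Exons of 16 members overlap those of another annotated gene, on the opposite strand for 15 of them (Acvr2a, Acvrl1, Bmp4, Bmp5, Bmp6, Bmpr1a, Chrd, Eng, Fst, Fstl3, Gdf5, Ltbp2, Ltbp3, Tgfb2 and Tgfb3) and on the same strand for Tgfbr3, and whether fragments were assigned by strand is not given in the sources used here.

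**Figure D1:**
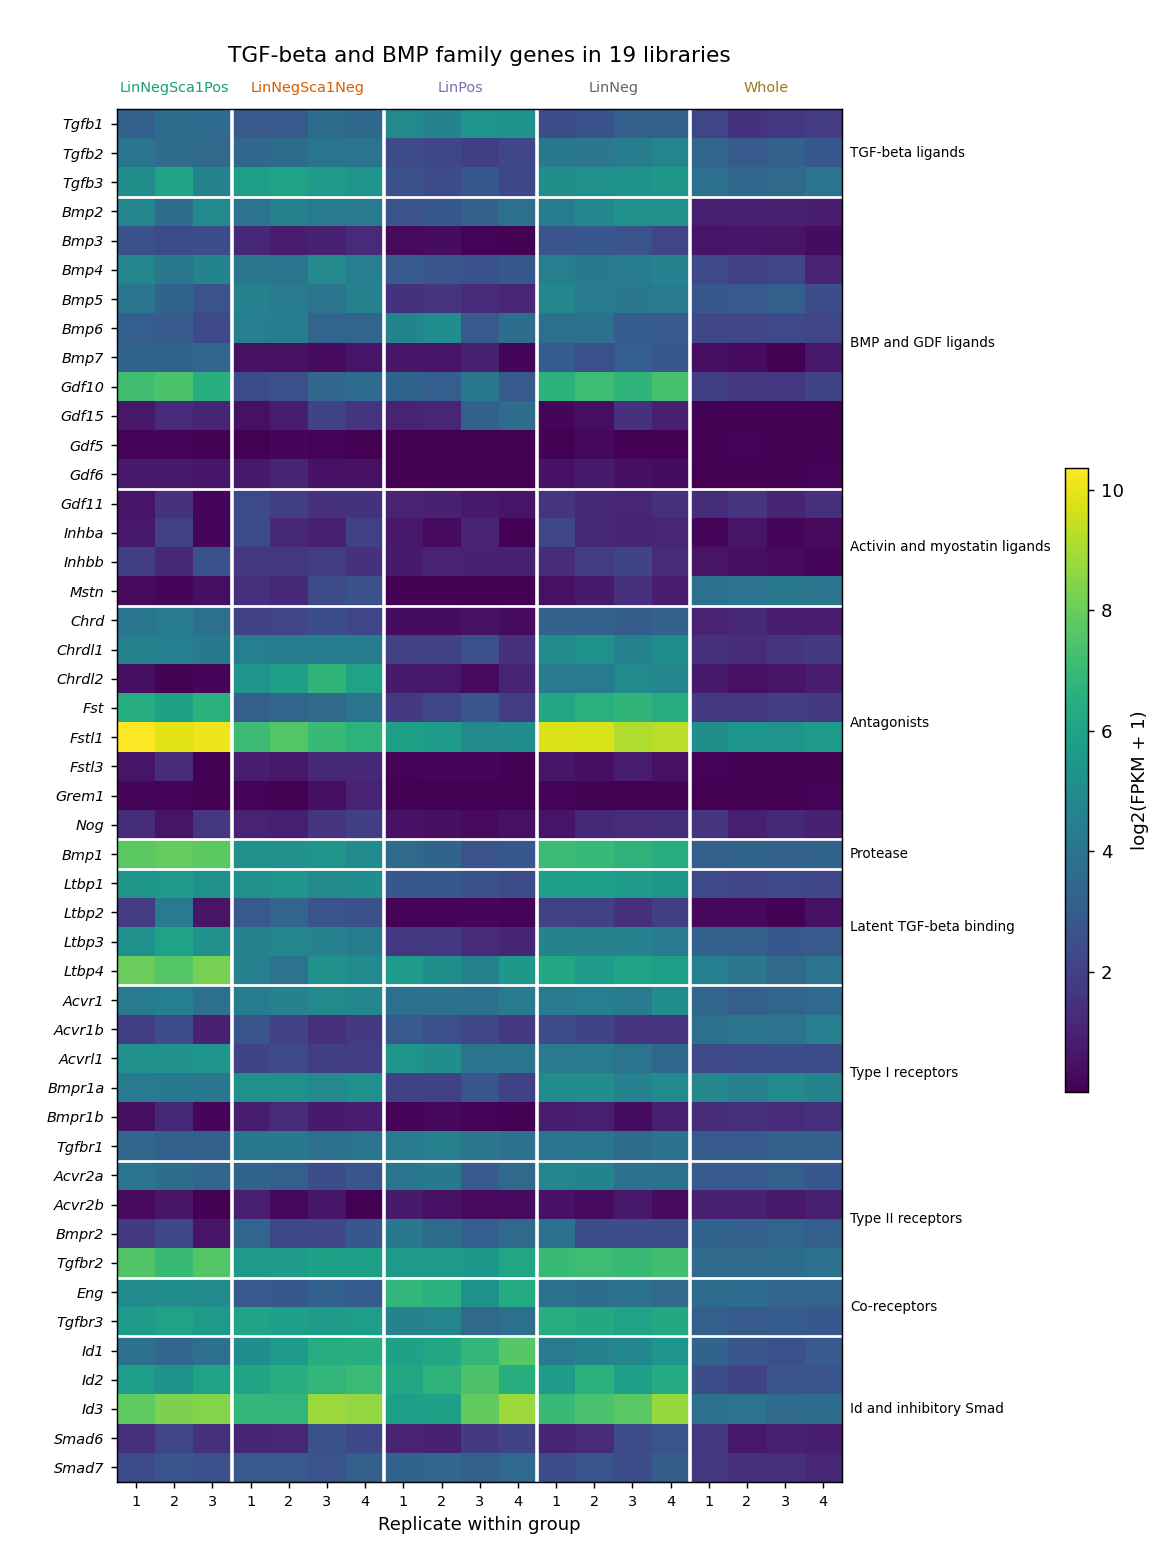
Level of the 47 family genes, as log2(FPKM + 1) on the colour scale, in each of 19 libraries (columns, numbered by replicate within group) with genes in rows by role. Fstl1 is the brightest row, at 978 to 1315 FPKM in LinNegSca1Pos, and Gdf10, Fst, Bmp1 and Ltbp4 are brighter there than in LinNegSca1Neg and LinPos.

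More members had their highest mean in LinNegSca1Pos than in LinNegSca1Neg or LinPos. Of the 43 tested members, 18 had their highest mean among these 3 sorted fractions, which hold no cells in common by design, in LinNegSca1Pos, 14 in LinNegSca1Neg and 11 in LinPos. The share of all tested genes with their highest mean in each fraction is not given here. These counts, and those by role below, therefore show nothing particular to the members. Libraries did not overlap with the next fraction for 10 members highest in LinNegSca1Pos, 4 highest in LinNegSca1Neg and 3 highest in LinPos, against 15.5%, 14.8% and 14.9% of all tested genes. The 10 were Bmp1, Bmp3, Bmp7, Chrd, Fst, Fstl1, Gdf10, Ltbp3, Ltbp4 and Tgfbr2, and the 4 were Bmpr1a, Chrdl2, Gdf11 and Mstn. The 3 were Eng, Tgfb1 and Smad7. By role, all 4 latent binding proteins and 4 of 7 tested antagonists were highest in LinNegSca1Pos, whereas no antagonist was highest in LinPos. Without LinNegSca1Pos replicate 2 the mean of Ltbp2 was highest in LinNegSca1Neg, and without LinNegSca1Pos replicate 1 so was that of Chrdl1 (19.2 FPKM in LinNegSca1Pos and 19.9 FPKM in LinNegSca1Neg). Leaving out any 1 library gave 17 to 20 members highest in LinNegSca1Pos, 12 to 15 in LinNegSca1Neg and 9 to 11 in LinPos. In bulk RNA fewer cells of a type and less RNA per cell cannot be told apart, so each value is that of a population.

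Summed over their members, ligands reached 282 ± 56.9 FPKM in LinNegSca1Pos, 167 ± 4.51 in LinNegSca1Neg, 95.4 ± 5.48 in LinPos, 291 ± 35.0 in LinNeg and 56.4 ± 3.13 in Whole (mean ± SD here and below). Gdf10 alone gave 136, 7.51, 10.1, 127 and 2.59 FPKM of these ligand sums, in the same order of groups. Antagonists other than Fstl1 summed to 119 ± 15.2, 104 ± 31.6, 8.03 ± 2.31, 154 ± 16.6 and 7.11 ± 0.684 FPKM in the same order of groups. Fst gave 80.8 FPKM of this sum in LinNegSca1Pos, and Chrdl2 gave 66.4 FPKM of it in LinNegSca1Neg. With Fstl1 included, antagonists summed to 1248 ± 182, 243 ± 39.3, 51.1 ± 13.2, 877 ± 145 and 49.2 ± 7.22 FPKM. Type I receptors summed to 85.8 ± 4.66 FPKM in LinNegSca1Pos, 81.5 ± 3.84 in LinNegSca1Neg, 65.9 ± 14.6 in LinPos, 85.3 ± 10.3 in LinNeg and 63.6 ± 5.58 in Whole. Type II receptors summed to 183 ± 32.8 FPKM in LinNegSca1Pos, 67.2 ± 2.13 in LinNegSca1Neg, 76.6 ± 13.4 in LinPos, 164 ± 10.1 in LinNeg and 28.3 ± 1.18 in Whole. The antagonist sums of LinPos lay below those of every LinNegSca1Pos, LinNegSca1Neg and LinNeg library. The type I receptor sums of LinPos replicates 1 and 2, 80.8 and 76.2 FPKM, lay within the range of LinNegSca1Neg. Those of LinPos replicates 3 and 4, 53.2 and 53.6 FPKM, lay below every LinNegSca1Pos, LinNegSca1Neg and LinNeg library.

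**Figure D2:**
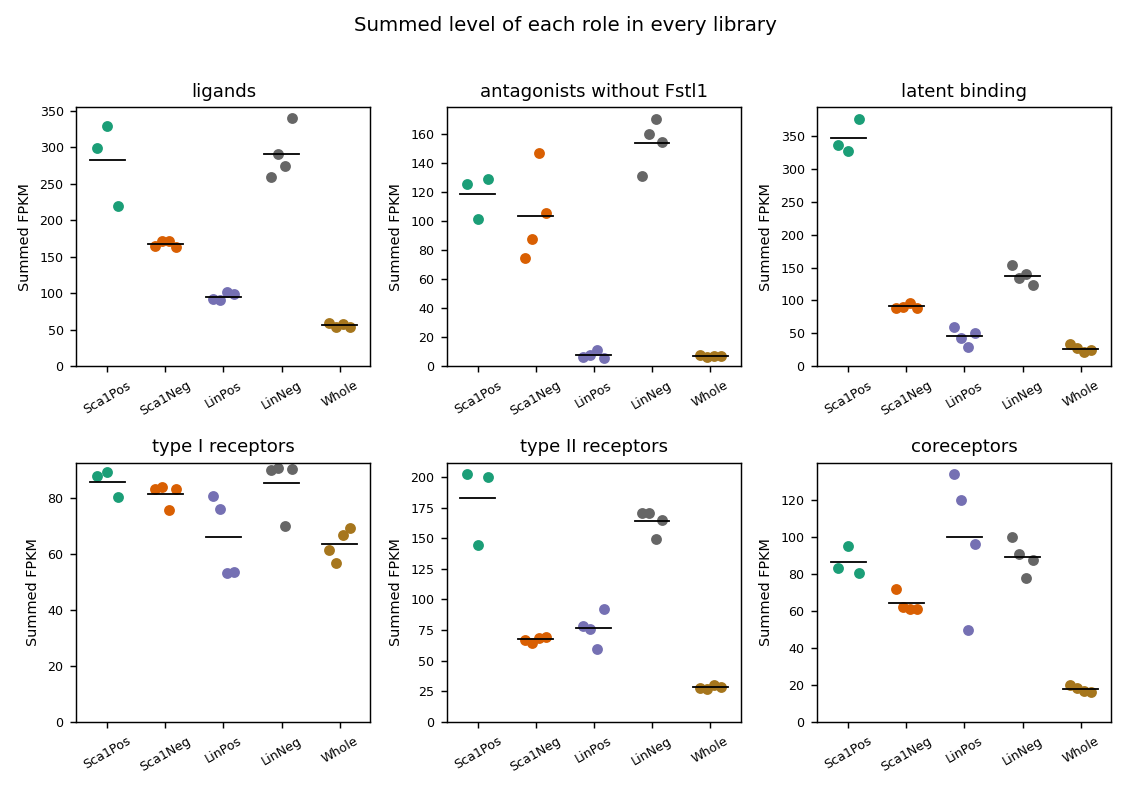
Summed FPKM of each role (vertical axes from 0) in every library, with points for libraries and a line for the group mean. Antagonists without Fstl1 lie at 6.04 to 11.3 FPKM in LinPos and at 74.5 FPKM or more in the LinNegSca1Pos, LinNegSca1Neg and LinNeg libraries, while type I receptor sums of all libraries lie between 53.2 and 90.8 FPKM.

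Between the lineage fractions, most called members were lower in LinPos. In LinPos against LinNeg, 5 tested members were called higher and 26 lower (limma with Benjamini-Hochberg adjustment over 14043 genes, threshold 0.05), against 25.3% and 25.8% of all tested genes, and 12 were not called. The 5 were Tgfb1, Eng, Gdf15, Id1 and Smad7. By role, 6 of 7 tested antagonists, 6 of 8 BMP and GDF ligands and all 4 latent binding proteins fell, and 2 of 5 Id and inhibitory Smad genes rose while none fell. The members' median log2 difference was -0.83, and that of all tested genes was 0.00. The 6 largest falls were of Fst, Fstl1, Chrdl2, Bmp1, Gdf10 and Ltbp3. Same-numbered LinPos and LinNeg libraries deviated together, as did other libraries of the same set, and the fit was repeated with the replicate number as a block. It called 8 members higher and 29 lower with all groups in the fit, or 9 and 28 with these groups only. The share of all genes called with the block is not given here, so these counts show no gain particular to the members. The higher calls gained were Acvrl1 (adjusted p = 0.0274), Bmp6 (adjusted p = 0.0319) and Bmpr2 (adjusted p = 0.029) with all groups, and also Acvr1b (adjusted p = 0.0159) with the compared groups only. The lower calls gained with all groups were Acvr2a (adjusted p = 0.0186), Gdf11 (adjusted p = 0.0342) and Inhba (adjusted p = 0.0489).

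Between the Sca1 fractions, calls went both ways. In LinNegSca1Pos against LinNegSca1Neg, 13 tested members were called higher and 10 lower, against 22.4% and 32.1% of all tested genes, and 20 were not called. The 6 largest rises were of Gdf10, Ltbp4, Acvrl1, Fstl1, Bmp7 and Fst. The largest falls were of Chrdl2, Id1, Mstn, Bmpr2, Bmp6 and Gdf11. The members' median log2 difference was -0.06, and that of all tested genes was -0.16. No TGF-beta ligand was called, whereas 3 of 8 tested BMP and GDF ligands rose and 2 fell.

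**Figure D3:**
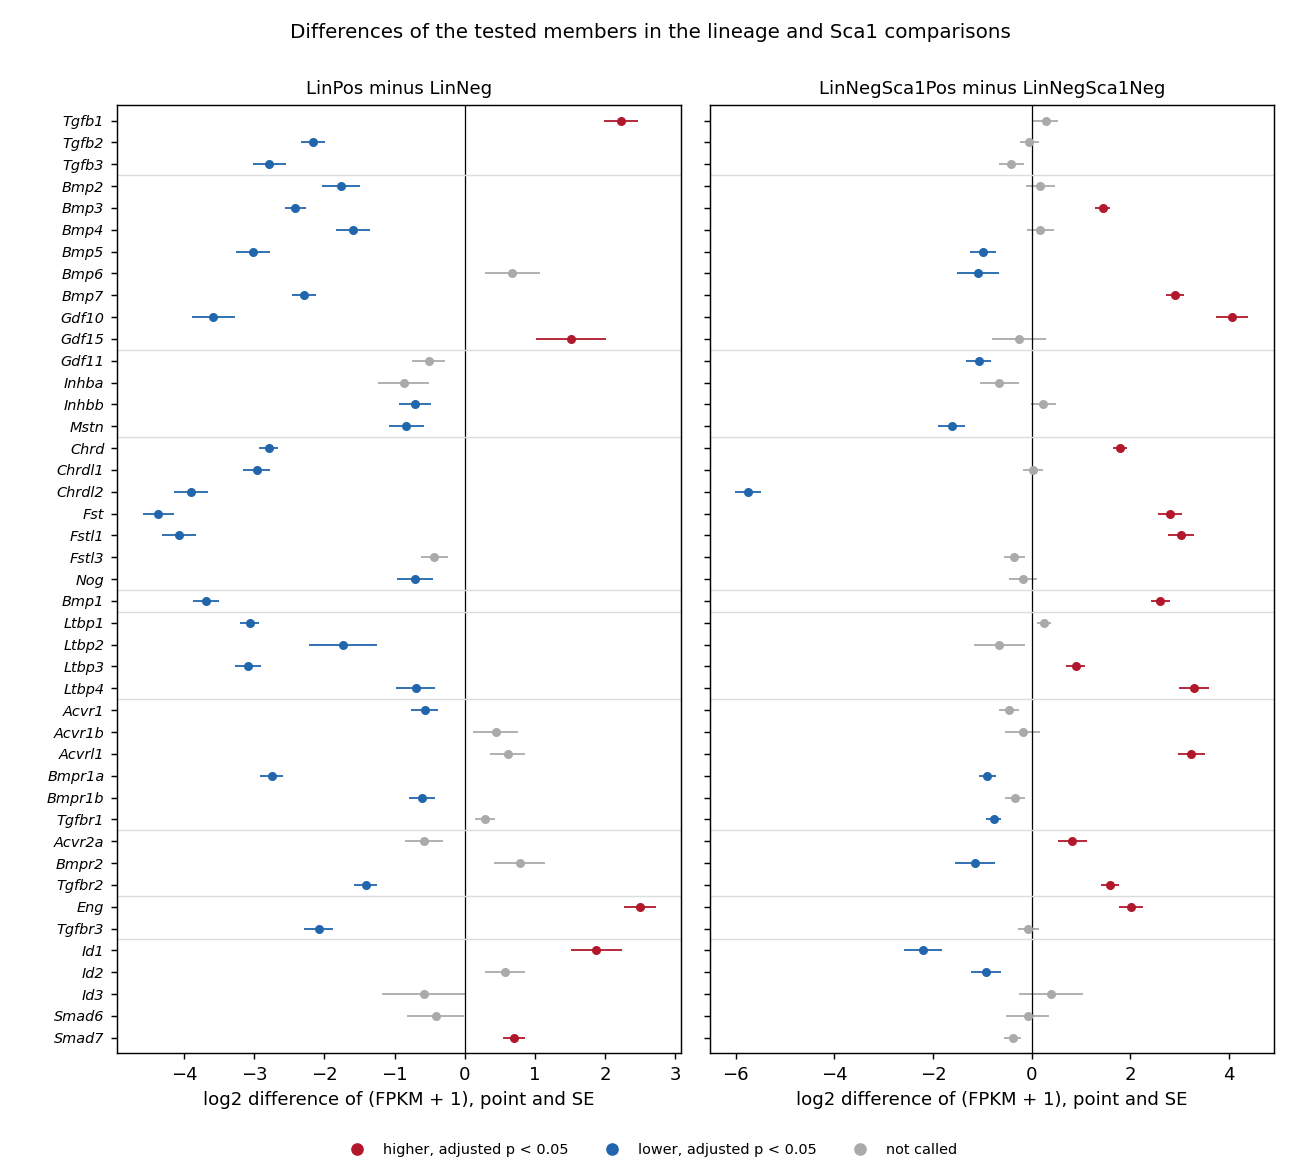
Log2 difference of (FPKM + 1) with its SE (horizontal axis) of the 43 tested members, LinPos minus LinNeg on the left and LinNegSca1Pos minus LinNegSca1Neg on the right, with red and blue for calls and grey for none. On the left 26 members are called lower and 5 higher, and on the right Chrdl2 lies at -5.75 and Gdf10 at 4.06.

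Among the TGF-beta ligands, Tgfb1 was highest in LinPos and Tgfb3 in the lineage-negative fractions. Tgfb1, the isoform made by most blood cells, had 29.999, 24.2, 42.1 and 38.2 FPKM in LinPos replicates 1 to 4 and 4.36, 5.16, 7.94 and 8.26 FPKM in LinNeg. It had 8.11, 12.3 and 11.4 FPKM in LinNegSca1Pos, 6.50, 6.34, 11.7 and 10.04 FPKM in LinNegSca1Neg and 3.54, 1.84, 2.19 and 2.46 FPKM in Whole. Every LinPos library lay above every other library. Tgfb1 rose in LinPos against LinNeg (log2 difference 2.23 ± 0.24, limma adjusted p = 2.11e-07; ± after a log2 difference is its SE). Against LinPos it fell in LinNegSca1Pos (log2 difference -1.57 ± 0.26, limma adjusted p = 3.68e-05) and in LinNegSca1Neg (log2 difference -1.86 ± 0.24, limma adjusted p = 2.09e-06), and between the Sca1 fractions it was not called (log2 difference 0.29 ± 0.26, limma adjusted p = 0.355).

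Tgfb3 had 34.0, 65.9 and 24.0 FPKM in LinNegSca1Pos, 54.8, 63.9, 47.7 and 39.8 FPKM in LinNegSca1Neg and 5.00, 4.13, 6.03 and 3.76 FPKM in LinPos. All 4 LinPos libraries lay below every library of the Sca1 fractions, and the widest spread was within LinNegSca1Pos, where replicate 2 was highest. Tgfb3 fell in LinPos against LinNeg (log2 difference -2.79 ± 0.23, limma adjusted p = 8.84e-09) and rose in LinNegSca1Neg against LinPos (log2 difference 3.19 ± 0.23, limma adjusted p = 1.46e-09). Tgfb2 averaged 12.6 ± 2.01 FPKM in LinNegSca1Pos, 13.1 ± 2.41 in LinNegSca1Neg, 3.59 ± 0.625 in LinPos, 19.6 ± 3.86 in LinNeg and 7.59 ± 1.49 in Whole, and it fell in LinPos against LinNeg (log2 difference -2.16 ± 0.17, limma adjusted p = 4.05e-09). As a share of the 3 isoforms' summed FPKM, Tgfb1 made up 79.6% ± 4.29 in LinPos and 9.85% ± 1.82 in LinNeg. Tgfb3 made up 61.5% ± 10.8 in LinNegSca1Pos, 69.9% ± 8.44 in LinNegSca1Neg and 11.4% ± 2.17 in LinPos.

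Gdf10 (BMP3b), a GDF secreted by mesenchymal cells, was the most abundant ligand of the list in LinNegSca1Pos and LinNeg. It had 147, 173 and 88.2 FPKM in LinNegSca1Pos, 4.08, 4.71, 9.83 and 11.4 FPKM in LinNegSca1Neg and 9.20, 7.65, 16.8 and 6.64 FPKM in LinPos. LinNeg had 101, 139, 106 and 161 FPKM and Whole 2.76, 2.16, 2.15 and 3.29 FPKM. The LinNegSca1Pos and LinNeg libraries were all above 88 FPKM and no other library passed 17 FPKM. Gdf10 rose in LinNegSca1Pos against LinNegSca1Neg (log2 difference 4.06 ± 0.33, limma adjusted p = 1.44e-08) and fell in LinPos against LinNeg (log2 difference -3.58 ± 0.31, limma adjusted p = 1.11e-08), and its window is printed above with a single GGCGCC match. Its closest paralogue Bmp3, which in mouse bone opposes other BMPs, followed the same order of the Sca1 fractions at far lower levels, 4.53 ± 0.452 FPKM in LinNegSca1Pos and 1.05 ± 0.297 FPKM in LinNegSca1Neg (log2 difference 1.44 ± 0.16, limma adjusted p = 6.43e-07).

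Bmp5, Bmp6 and Bmp7 form 1 subfamily and had their highest means in 3 different fractions, LinNegSca1Neg, LinPos and LinNegSca1Pos in that order. Bmp7 had 9.27, 9.09 and 9.54 FPKM in LinNegSca1Pos, 0.372, 0.385, 0.237 and 0.495 FPKM in LinNegSca1Neg and 0.550, 0.484, 0.884 and 0.118 FPKM in LinPos. It stayed under 1 FPKM in every LinNegSca1Neg, LinPos and Whole library, and it rose in LinNegSca1Pos against LinNegSca1Neg (log2 difference 2.91 ± 0.18, limma adjusted p = 5.78e-10). Bmp5 averaged 10.1 ± 5.39 FPKM in LinNegSca1Pos, 19.6 ± 3.82 in LinNegSca1Neg and 1.61 ± 0.374 in LinPos, and it fell in LinNegSca1Pos against LinNegSca1Neg (log2 difference -0.99 ± 0.27, limma adjusted p = 0.00455). Bmp6, which endothelium makes to set hepcidin in the liver, had 7.67, 6.96 and 3.93 FPKM in LinNegSca1Pos, 20.7, 19.6, 9.47 and 9.43 FPKM in LinNegSca1Neg and 24.8, 32.3, 6.44 and 12.4 FPKM in LinPos. In both LinNegSca1Neg and LinPos the set A libraries were above the set B libraries, and LinPos overlapped with LinNegSca1Neg. Without LinPos replicate 2 the mean of Bmp6 was 14.5 FPKM in LinPos, below the 14.8 FPKM of LinNegSca1Neg. Bmp6 fell in LinNegSca1Pos against LinNegSca1Neg (log2 difference -1.09 ± 0.42, limma adjusted p = 0.0346), a call that was lost with set B alone (adjusted p = 0.0626). It was also lost without LinNegSca1Neg replicate 1 (adjusted p = 0.094) or 2 (adjusted p = 0.0891) and without LinNegSca1Pos replicate 2 (adjusted p = 0.0527) or 3 (adjusted p = 0.154).

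Bmp2 and Bmp4, ligands of bone and muscle formation, had similar means in both Sca1 fractions. Bmp2 averaged 22.0 ± 9.15 FPKM in LinNegSca1Pos and 18.3 ± 2.99 FPKM in LinNegSca1Neg (log2 difference 0.17 ± 0.29, limma adjusted p = 0.641, not called), and 8.37 ± 3.57 FPKM in LinPos. Bmp4 averaged 22.5 ± 5.18 FPKM in LinNegSca1Pos and 20.04 ± 6.27 FPKM in LinNegSca1Neg (log2 difference 0.18 ± 0.27, limma adjusted p = 0.594, not called), and 5.98 ± 0.712 FPKM in LinPos. Both fell in LinPos against LinNeg, Bmp2 by 1.77 and Bmp4 by 1.59 on the log2 scale (adjusted p = 2.08e-05 and 2.34e-05, limma). Gdf15, a distant member induced by cell stress, had 1.01, 1.15, 8.18 and 12.2 FPKM in LinPos and 0.119, 0.313, 1.78 and 0.909 FPKM in LinNeg. Its higher values were those of set B in both groups, and 2 LinPos libraries lay within the range of LinNeg. Gdf15 rose in LinPos against LinNeg (log2 difference 1.52 ± 0.50, limma adjusted p = 0.0166), and the call was lost without LinPos replicate 3 (adjusted p = 0.0653), without LinPos replicate 4 (adjusted p = 0.0724) and without LinNeg replicate 1 (adjusted p = 0.0518).

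**Figure D4:**
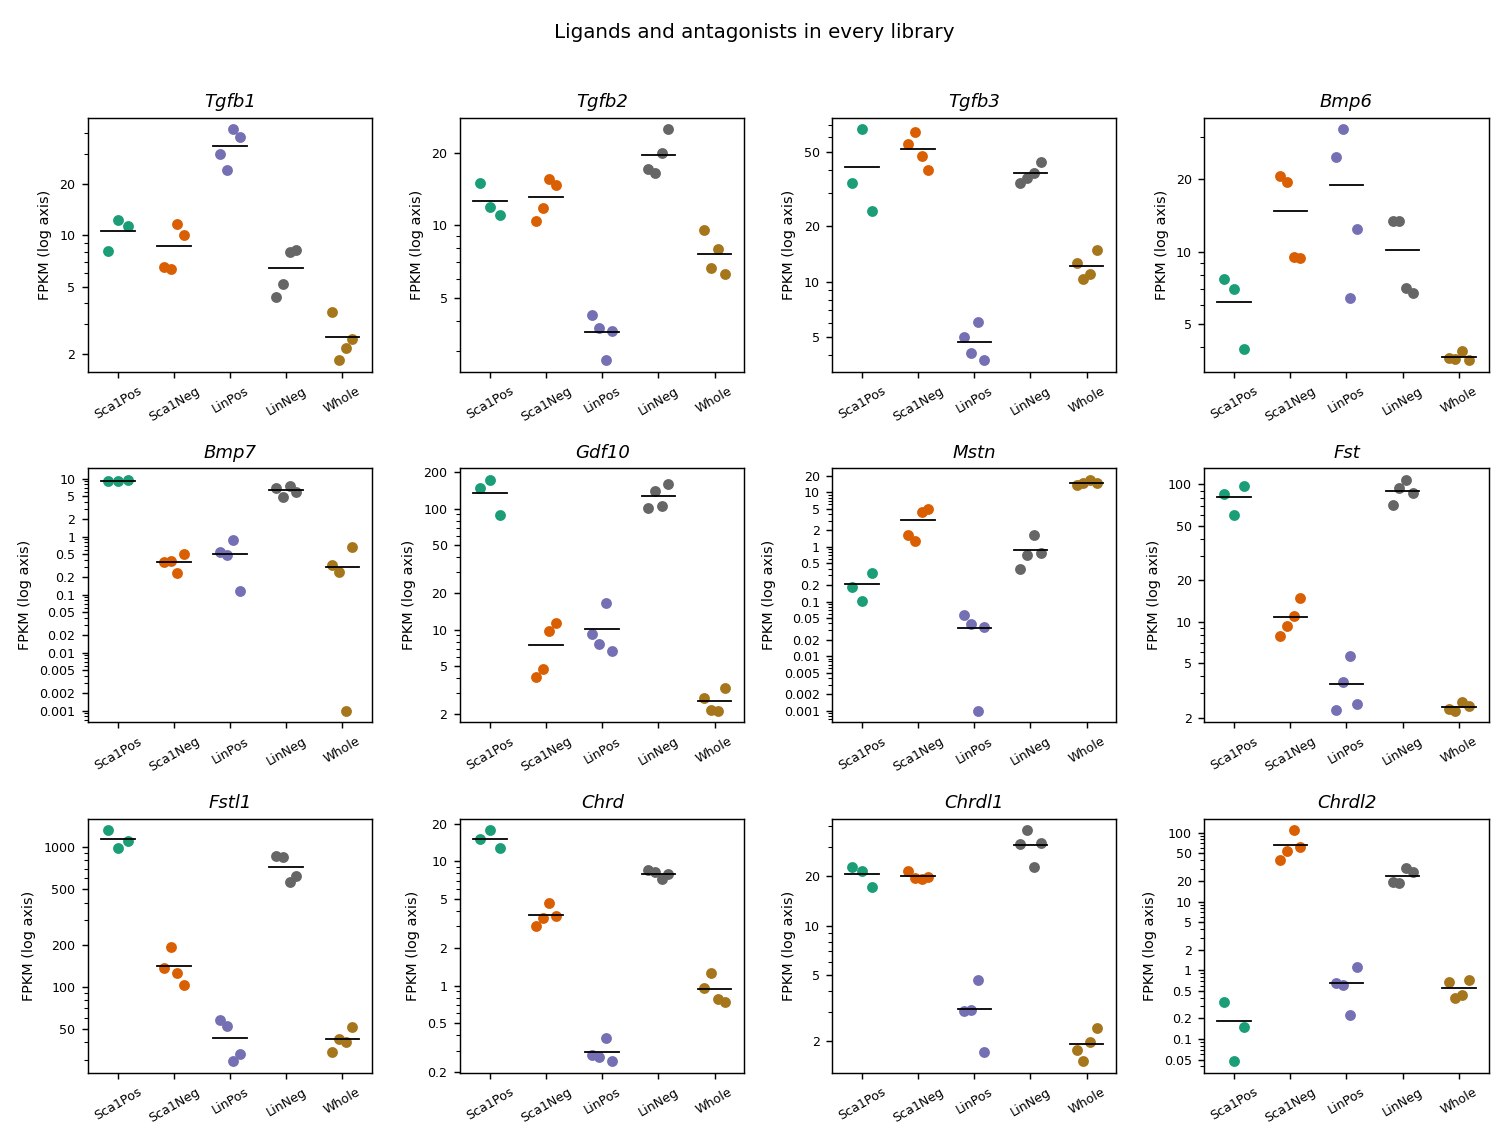
FPKM (log axes, each panel with its own range) of 7 ligands and 5 antagonists in every library, with points for libraries and lines for group means, and the lowest listed value drawn at 0.001. Tgfb1 is highest in the 4 LinPos libraries, Bmp7 and Gdf10 are high in LinNegSca1Pos and LinNeg, Chrdl2 is high in LinNegSca1Neg and LinNeg, and Mstn is highest in Whole.

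Myostatin was highest in Whole. Mstn, the inhibitor of fibre growth, had 0.187, 0.103 and 0.326 FPKM in LinNegSca1Pos, 1.62, 1.27, 4.30 and 5.00 FPKM in LinNegSca1Neg and 0.0565, 0.0386, 0.001 and 0.0339 FPKM in LinPos. Whole had 13.9, 14.6, 16.9 and 14.7 FPKM, above every library of the sorted fractions. Against Whole, Mstn fell in LinNegSca1Pos (log2 difference -3.73 ± 0.27, limma adjusted p = 1.12e-09), in LinNegSca1Neg (log2 difference -2.11 ± 0.25, limma adjusted p = 8.59e-07) and in LinPos (log2 difference -3.95 ± 0.25, limma adjusted p = 1.21e-10). It also fell in LinNegSca1Pos against LinNegSca1Neg (log2 difference -1.63 ± 0.27, limma adjusted p = 7.69e-05). Its LinNegSca1Neg values moved with muscle fibre genes, which summed to 3884, 3104, 18262 and 22175 FPKM in replicates 1 to 4 and to 84338 to 104055 FPKM in Whole. All 11 fibre markers found were at a mean of 1 FPKM or more in both groups, and their part in the Mstn values was not tested.

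Activin genes were low throughout. Inhba, the activin A subunit, averaged 1.21 ± 1.48 FPKM in LinNegSca1Pos, 2.27 ± 1.43 in LinNegSca1Neg and 0.487 ± 0.437 in LinPos, and Inhbb, the activin B subunit, averaged 3.09 ± 1.95, 2.22 ± 0.381 and 0.891 ± 0.144 FPKM in the same groups. Neither was called between the Sca1 fractions. Gdf11, the close relative of myostatin, had 0.488, 1.78 and 0.124 FPKM in LinNegSca1Pos and 4.01, 2.81, 1.81 and 1.83 FPKM in LinNegSca1Neg. The groups did not overlap, and Gdf11 fell in LinNegSca1Pos (log2 difference -1.07 ± 0.26, limma adjusted p = 0.00178).

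Of 7 tested antagonists, 3 rose in LinNegSca1Pos against LinNegSca1Neg (Fstl1, Fst and Chrd) and 1 fell (Chrdl2). Fstl1, a follistatin-like protein that binds BMP4, had 1315, 978 and 1096 FPKM in LinNegSca1Pos, 136, 194, 125 and 103 FPKM in LinNegSca1Neg and 57.5, 52.6, 29.4 and 32.9 FPKM in LinPos. Its lowest LinNegSca1Pos library lay above the highest library of any other group. Fstl1 rose in LinNegSca1Pos against LinNegSca1Neg (log2 difference 3.04 ± 0.26, limma adjusted p = 2.93e-08) and against LinPos (log2 difference 4.73 ± 0.26, limma adjusted p = 3.16e-11), and fell in LinPos against LinNeg (log2 difference -4.07 ± 0.24, limma adjusted p = 7.71e-11). Fst, the activin and myostatin binder follistatin, had 85.6, 60.2 and 96.8 FPKM in LinNegSca1Pos, 7.84, 9.32, 11.1 and 14.9 FPKM in LinNegSca1Neg and 2.29, 3.62, 5.59 and 2.53 FPKM in LinPos. The 3 groups did not overlap, and Fst rose in LinNegSca1Pos against LinNegSca1Neg (log2 difference 2.80 ± 0.24, limma adjusted p = 2.4e-08) and against LinPos (log2 difference 4.21 ± 0.24, limma adjusted p = 3.86e-11). In LinPos against LinNeg, Fst had the largest fall of the list (log2 difference -4.37 ± 0.22, limma adjusted p = 8.36e-12).

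The chordin genes, which encode BMP binders, were split by fraction. Chrd had 15.2, 17.8 and 12.8 FPKM in LinNegSca1Pos and 3.02, 3.52, 4.60 and 3.63 FPKM in LinNegSca1Neg, with no overlap, and rose in LinNegSca1Pos (log2 difference 1.79 ± 0.14, limma adjusted p = 1.1e-08). Chrdl2 had 0.345, 0.0479 and 0.1502 FPKM in LinNegSca1Pos, 40.5, 54.2, 109 and 62.2 FPKM in LinNegSca1Neg and 0.659, 0.605, 0.227 and 1.13 FPKM in LinPos. All LinNegSca1Neg libraries were above 40 FPKM and no LinNegSca1Pos library reached 1 FPKM. Chrdl2 fell in LinNegSca1Pos (log2 difference -5.75 ± 0.26, limma adjusted p = 1.13e-11). Chrdl2 also rose in LinNegSca1Neg against LinPos (log2 difference 5.28 ± 0.24, limma adjusted p = 3.51e-12) and fell in LinPos against LinNeg (log2 difference -3.90 ± 0.24, limma adjusted p = 1.44e-10). Its LinNegSca1Neg values stood beside a tenocyte marker sum of 2588 to 4690 FPKM, against 209 to 644 FPKM in LinNegSca1Pos. Schwann cell, satellite cell, smooth muscle and fibre marker sums were also higher in LinNegSca1Neg. Within LinNegSca1Neg, replicate 3 had the highest tenocyte sum and the highest Chrdl2, and replicate 1 the lowest of both. LinNegSca1Pos replicate 2 had the highest tenocyte sum of its group and the lowest Chrdl2. LinNeg replicate 3 had the lowest tenocyte sum of its group, 688 FPKM, and the highest Chrdl2, 30.3 FPKM. The part of any of these cells was not tested.

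Chrdl1 had 22.7, 21.3 and 17.1 FPKM in LinNegSca1Pos and 21.3, 19.3, 19.2 and 19.7 FPKM in LinNegSca1Neg (log2 difference 0.03 ± 0.21, limma adjusted p = 0.926, not called). It made up 99.1% ± 0.638 of the summed Chrdl1 and Chrdl2 FPKM in LinNegSca1Pos, and 24.9% ± 7.98 in LinNegSca1Neg. In LinPos it averaged 3.15 ± 1.23 FPKM, and it fell in LinPos against LinNeg (log2 difference -2.96 ± 0.19, limma adjusted p = 2.3e-10). Nog, which encodes the BMP binder noggin, stayed at or below 2.77 FPKM in every library, and Fstl3 at or below 1.42 FPKM. Neither was called between the Sca1 fractions, and Nog fell in LinPos against LinNeg (log2 difference -0.71 ± 0.26, limma adjusted p = 0.0299), a call lost without LinPos replicates 2 or 3 or LinNeg replicates 2, 3 or 4 (adjusted p = 0.0521, 0.0666, 0.0606, 0.0759 and 0.0799).

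Among LinNegSca1Pos, LinNegSca1Neg and LinPos, Bmp1 and the 4 Ltbp genes had their highest means in LinNegSca1Pos, the mean of Ltbp2 through 1 library only. Bmp1, which despite its name is a procollagen C-proteinase that also cleaves chordin and LTBP1, had 217, 243 and 215 FPKM in LinNegSca1Pos, 36.2, 37.0, 40.2 and 31.0 FPKM in LinNegSca1Neg and 11.04, 9.22, 5.25 and 6.16 FPKM in LinPos. The 3 fractions did not overlap. Bmp1 rose in LinNegSca1Pos against LinNegSca1Neg (log2 difference 2.61 ± 0.20, limma adjusted p = 5.62e-09) and against LinPos (log2 difference 4.71 ± 0.20, limma adjusted p = 1.25e-12), and fell in LinPos against LinNeg (log2 difference -3.69 ± 0.18, limma adjusted p = 7.05e-12). Ltbp4, which holds latent TGF-beta1 and organises elastic fibres, had 254, 199 and 302 FPKM in LinNegSca1Pos, 22.0, 14.3, 36.6 and 31.2 FPKM in LinNegSca1Neg and 51.3, 35.0, 22.2 and 45.5 FPKM in LinPos. LinNegSca1Pos lay above all other libraries, and Ltbp4 rose there against LinNegSca1Neg (log2 difference 3.29 ± 0.31, limma adjusted p = 7.54e-08).

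The fall of Ltbp4 in LinPos against LinNeg (log2 difference -0.70 ± 0.28, limma adjusted p = 0.0467) was lost in 9 of 20 alternatives, among them leaving out LinPos replicate 3 (adjusted p = 0.179), LinPos replicate 2 (adjusted p = 0.0874) or LinNeg replicate 1, 3 or 4 (adjusted p = 0.113, 0.0875 and 0.0646). Ltbp3 averaged 45.0 ± 14.5 FPKM in LinNegSca1Pos, 23.2 ± 2.29 in LinNegSca1Neg and 1.73 ± 0.608 in LinPos, and fell in LinPos against LinNeg (log2 difference -3.09 ± 0.18, limma adjusted p = 7.86e-11). Ltbp1 averaged 42.2 ± 5.92 FPKM in LinNegSca1Pos, 35.2 ± 4.70 in LinNegSca1Neg and 5.37 ± 0.871 in LinPos, and it fell in LinPos against LinNeg (log2 difference -3.06 ± 0.13, limma adjusted p = 1.58e-12) but was not called between the Sca1 fractions. Ltbp2, which binds no TGF-beta, had 2.54, 18.98 and 0.450 FPKM in LinNegSca1Pos and 6.34, 9.34, 5.52 and 4.96 FPKM in LinNegSca1Neg, and without LinNegSca1Pos replicate 2 its mean there was below the 6.54 FPKM of LinNegSca1Neg. As a share of the 4 genes' summed FPKM, Ltbp4 made up 72.3% ± 10.2 in LinNegSca1Pos and 28.5% ± 10.2 in LinNegSca1Neg.

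Among type I receptors, Acvrl1 rose and Bmpr1a and Tgfbr1 fell in LinNegSca1Pos against LinNegSca1Neg. Acvrl1 (ALK1), the endothelial type I receptor for BMP9 and BMP10, had 37.4, 36.3 and 40.9 FPKM in LinNegSca1Pos, 3.37, 3.83, 2.78 and 2.72 FPKM in LinNegSca1Neg and 39.8, 33.0, 14.7 and 16.0 FPKM in LinPos. LinNegSca1Neg lay below every library of the other sorted fractions, while LinNegSca1Pos overlapped with LinPos. Acvrl1 rose in LinNegSca1Pos against LinNegSca1Neg (log2 difference 3.24 ± 0.27, limma adjusted p = 2.43e-08) and fell in LinNegSca1Neg against LinPos (log2 difference -2.57 ± 0.25, limma adjusted p = 7.81e-08). The endothelial markers Pecam1 and Cdh5 averaged 3.75 ± 2.81 and 2.85 ± 2.59 FPKM in LinNegSca1Pos, against 303 ± 96.0 and 307 ± 115 FPKM in LinPos, while Acvrl1 averaged 38.2 ± 2.40 FPKM in LinNegSca1Pos and 25.9 ± 12.5 FPKM in LinPos. The whole list of 12 endothelial markers summed to 78.8 to 134 FPKM in LinNegSca1Pos and to 78.6 to 90.6 FPKM in LinNegSca1Neg. This list includes the member Eng, at 30.9 to 32.9 FPKM in LinNegSca1Pos and 6.22 to 8.22 FPKM in LinNegSca1Neg. Of the 11 other markers, 1 was called higher and 5 lower in LinNegSca1Pos against LinNegSca1Neg, against 22.4% and 32.1% of all tested genes. The part of endothelial cells in the Acvrl1 values was not tested.

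Bmpr1a (ALK3), a type I receptor for BMP2 and BMP4, had 18.6, 17.4 and 17.0 FPKM in LinNegSca1Pos, 36.3, 35.7, 28.2 and 35.6 FPKM in LinNegSca1Neg and 2.96, 3.12, 5.60 and 2.96 FPKM in LinPos. The 3 fractions did not overlap. Bmpr1a fell in LinNegSca1Pos against LinNegSca1Neg (log2 difference -0.90 ± 0.18, limma adjusted p = 0.000391), in LinPos against LinNeg (log2 difference -2.75 ± 0.17, limma adjusted p = 8.76e-11) and in LinPos against Whole (log2 difference -2.53 ± 0.17, limma adjusted p = 1.56e-10). Bmpr1b never exceeded 1.65 FPKM, a level it reached in Whole. Acvr1b (ALK4), an activin and myostatin receptor, had 2.82, 4.63 and 0.926 FPKM in LinNegSca1Pos, 5.38, 3.16, 1.67 and 2.32 FPKM in LinNegSca1Neg and 6.35, 4.77, 3.66 and 2.43 FPKM in LinPos. Whole had 13.1, 14.7, 14.3 and 20.7 FPKM, above all sorted libraries. Acvr1b was lower against Whole in LinNegSca1Pos (log2 difference -2.25 ± 0.35, limma adjusted p = 1.79e-05), LinNegSca1Neg (log2 difference -2.07 ± 0.33, limma adjusted p = 1.89e-05) and LinPos (log2 difference -1.69 ± 0.33, limma adjusted p = 0.000138).

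Tgfbr1, the type I receptor for TGF-beta, averaged 8.65 ± 0.849 FPKM in LinNegSca1Pos, 15.5 ± 1.80 in LinNegSca1Neg and 17.6 ± 3.39 in LinPos, and fell in LinNegSca1Pos against LinNegSca1Neg (log2 difference -0.77 ± 0.16, limma adjusted p = 0.000497). Acvr1 (ALK2), mutated in fibrodysplasia ossificans progressiva, averaged 17.9 ± 4.23 FPKM in LinNegSca1Pos, 24.8 ± 3.97 in LinNegSca1Neg and 14.4 ± 2.67 in LinPos, and was not called between the Sca1 fractions. Tgfbr2, the type II receptor for TGF-beta that pairs with Tgfbr1, went the other way between the Sca1 fractions. Tgfbr2 had 186, 128 and 189.8 FPKM in LinNegSca1Pos, 47.8, 52.7, 59.8 and 57.4 FPKM in LinNegSca1Neg and 45.9, 46.7, 44.9 and 69.9 FPKM in LinPos. LinNegSca1Pos lay above both other fractions without overlap, and Tgfbr2 rose there against LinNegSca1Neg (log2 difference 1.59 ± 0.17, limma adjusted p = 5.86e-07).

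The BMP type II receptor Bmpr2 averaged 2.21 ± 1.63 FPKM in LinNegSca1Pos, 5.76 ± 2.69 in LinNegSca1Neg and 11.7 ± 3.79 in LinPos. It fell in LinNegSca1Pos against LinNegSca1Neg (log2 difference -1.15 ± 0.40, limma adjusted p = 0.0213), a call lost without LinNegSca1Pos replicate 3 (adjusted p = 0.173) or LinNegSca1Neg replicate 1 (adjusted p = 0.0691). Against LinPos and against Whole it was also lower in LinNegSca1Pos (log2 difference -2.09 ± 0.40, limma adjusted p = 0.000192 and log2 difference -1.74 ± 0.40, limma adjusted p = 0.000887). The activin receptor Acvr2a averaged 12.4 ± 2.56 FPKM in LinNegSca1Pos, 6.68 ± 1.99 in LinNegSca1Neg and 12.7 ± 4.72 in LinPos, and rose in LinNegSca1Pos against LinNegSca1Neg (log2 difference 0.82 ± 0.30, limma adjusted p = 0.0258). That call was lost without LinNegSca1Pos replicate 1 (adjusted p = 0.102) or 2 (adjusted p = 0.0624) and without LinNegSca1Neg replicate 3 (adjusted p = 0.0802) or 4 (adjusted p = 0.0581).

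Of the co-receptors, Eng rose and Tgfbr3 fell in LinPos against LinNeg. Eng (endoglin), an endothelial co-receptor for BMP9 and TGF-beta, had 31.2, 32.9 and 30.9 FPKM in LinNegSca1Pos, 6.90, 6.22, 8.22 and 7.18 FPKM in LinNegSca1Neg and 111, 94.4, 38.5 and 82.8 FPKM in LinPos. The 3 fractions did not overlap, and the lowest LinPos value was that of replicate 3. The endothelial marker sum of that library, 696 FPKM, in which Eng itself is counted, was also the lowest of LinPos. Eng rose in LinPos against LinNeg (log2 difference 2.50 ± 0.22, limma adjusted p = 2.17e-08) and in LinNegSca1Pos against LinNegSca1Neg (log2 difference 2.01 ± 0.24, limma adjusted p = 1.76e-06), and fell in LinNegSca1Neg against LinPos (log2 difference -3.25 ± 0.22, limma adjusted p = 6.41e-10). Tgfbr3 (betaglycan), which presents TGF-beta2, averaged 54.3 ± 6.84 FPKM in LinNegSca1Pos, 56.8 ± 5.61 in LinNegSca1Neg and 18.1 ± 7.13 in LinPos, and fell in LinPos against LinNeg (log2 difference -2.08 ± 0.20, limma adjusted p = 6.84e-08). Eng made up 81.4% ± 3.94 of the summed Eng and Tgfbr3 FPKM in LinPos, and 14.4% ± 2.24 in LinNeg.

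**Figure D5:**
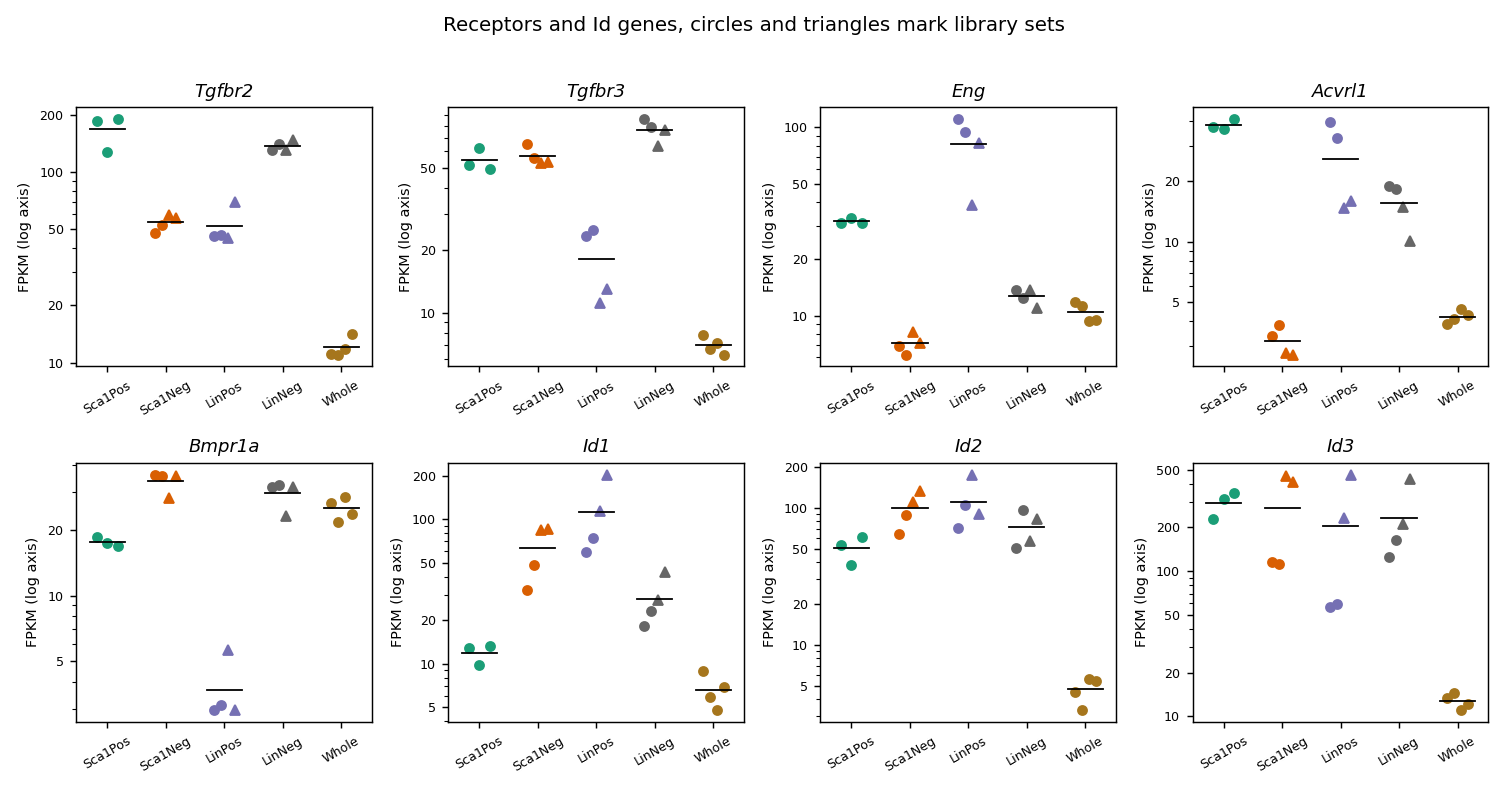
FPKM (log axes) of 5 receptors and the 3 Id genes in every library, with lines for group means; in LinNegSca1Neg, LinPos and LinNeg circles are replicates 1 and 2 and triangles replicates 3 and 4, and LinNegSca1Pos and Whole have circles only. Acvrl1 is low in LinNegSca1Neg, Bmpr1a is low in LinPos, and the triangles of Id3 lie above the circles in LinNegSca1Neg, LinPos and LinNeg.

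The BMP target Id1 was lowest, of the 3 sorted fractions, in LinNegSca1Pos. Id1 had 12.9, 9.77 and 13.2 FPKM in LinNegSca1Pos, 32.3, 48.2, 84.2 and 86.0 FPKM in LinNegSca1Neg and 59.4, 73.9, 115 and 203 FPKM in LinPos. Every LinNegSca1Pos library lay below every LinNegSca1Neg and LinPos library. The summed BMP and GDF ligands were 212 ± 39.7 FPKM in LinNegSca1Pos, 83.9 ± 3.03 in LinNegSca1Neg and 51.3 ± 3.48 in LinPos. Of these sums Gdf10 alone gave 136, 7.51 and 10.1 FPKM in the same order, and their part in the Id1 values was not tested. Id1 fell in LinNegSca1Pos against LinNegSca1Neg (log2 difference -2.20 ± 0.39, limma adjusted p = 0.000121) and against LinPos (log2 difference -2.98 ± 0.39, limma adjusted p = 2.69e-06), and rose in LinPos against LinNeg (log2 difference 1.88 ± 0.36, limma adjusted p = 0.000228). In LinNegSca1Neg against LinPos it was not called (log2 difference -0.78 ± 0.36, limma adjusted p = 0.0753), but was with the replicate block (adjusted p = 0.0212 with all groups). The rise in LinPos against LinNeg was called within set A and within set B (log2 difference 1.64 and 2.11), and the falls of LinNegSca1Pos, whose 3 libraries served in both fits, kept their direction against either set.

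Id3 differed between library sets in LinNegSca1Neg and LinPos. Id3 had 229.7, 314 and 345 FPKM in LinNegSca1Pos, 116, 113, 450.2 and 413 FPKM in LinNegSca1Neg and 57.0, 59.3, 233 and 462 FPKM in LinPos. Both set A libraries were below both set B libraries in LinNegSca1Neg and in LinPos, so groups overlapped, and Id3 was not called between the Sca1 fractions (log2 difference 0.39 ± 0.64, limma adjusted p = 0.631). The same 3 LinNegSca1Pos libraries were higher than the set A libraries of LinNegSca1Neg (log2 difference 1.34, limma adjusted p = 7.3e-05) and not called against its set B libraries (log2 difference -0.56, limma adjusted p = 0.143). In LinNegSca1Neg against LinPos, Id3 was not called (log2 difference 0.68 ± 0.60, limma adjusted p = 0.359), nor with the replicate block and all groups (adjusted p = 0.18), but was called higher with the block and these groups only (adjusted p = 0.0364). Id2 fell in LinNegSca1Pos against LinNegSca1Neg (log2 difference -0.92 ± 0.30, limma adjusted p = 0.0151), a call lost with set A (adjusted p = 0.102), without LinNegSca1Pos replicate 2 (adjusted p = 0.0829) and without LinNegSca1Neg replicate 4 (adjusted p = 0.0512).

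Of the inhibitory Smads, Smad7 averaged 4.74 ± 0.661 FPKM in LinNegSca1Pos, 6.53 ± 1.02 in LinNegSca1Neg and 9.32 ± 1.19 in LinPos, and rose in LinPos against LinNeg (log2 difference 0.71 ± 0.16, limma adjusted p = 0.00119), a call lost with set B alone (adjusted p = 0.0693). Smad6, whose window above carries the Smad palindrome, had 1.11, 1.17, 4.95 and 3.77 FPKM in LinNegSca1Neg and 1.03, 0.954, 2.40 and 3.19 FPKM in LinPos. Replicates 3 and 4 were the higher ones in both groups, and Smad6 was called in none of the 7 comparisons (limma, adjusted p from 0.111 to 0.897). With the replicate block and LinPos and LinNeg only, it was called lower in LinPos (log2 difference -0.41, limma adjusted p = 0.0448), but not with the block and all groups (adjusted p = 0.347).

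The Sca1 fractions were also set against LinPos directly. In LinNegSca1Pos against LinPos 24 tested members were called higher and 8 lower, against 29% and 30.9% of all tested genes. In LinNegSca1Neg against LinPos 25 were called higher and 6 lower, against 31.5% and 23% of all tested genes. Both comparisons share the LinPos libraries. All 7 tested antagonists rose in LinNegSca1Neg and 5 of 7 rose in LinNegSca1Pos. The largest rises in LinNegSca1Pos were of Fstl1, Bmp1 and Fst, and the largest falls of Id1, Bmpr2 and Tgfb1. In LinNegSca1Neg the largest rises were of Chrdl2, Tgfb3 and Ltbp3 (log2 difference 3.17 ± 0.18, limma adjusted p = 7.19e-11), and the largest falls of Eng, Acvrl1 and Tgfb1. Acvrl1 was called higher in LinNegSca1Pos against LinPos (log2 difference 0.67 ± 0.27, limma adjusted p = 0.0443), but was not without LinPos replicate 3 (adjusted p = 0.155) or 4 (adjusted p = 0.141), without any 1 LinNegSca1Pos library (adjusted p = 0.0817, 0.0725 and 0.115) or within set A (adjusted p = 0.659).

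Against Whole, more tested members were called higher than lower in LinNegSca1Pos, LinNegSca1Neg and LinPos, as were more of all tested genes. In LinNegSca1Pos 28 were called higher and 6 lower, against 44% and 21.6% of all tested genes, with a median log2 difference of 1.56 over members and 0.35 over all genes. In LinNegSca1Neg 31 were called higher and 3 lower, against 50% and 18.2%, with medians of 1.31 and 0.50. In LinPos 21 were called higher and 12 lower, against 48.8% and 22.9%, with medians of 0.43 and 0.45. With median-of-ratios scaling 15 were called higher in LinPos, and the share of all genes called under that scaling is not given here. The medians of all genes dropped to 0.00, 0.11 and 0.13 with median-of-ratios scaling. Calls of members against Whole were lost under that scaling up to a main log2 difference of 1.22, that of Gdf15 in LinNegSca1Neg (adjusted p = 0.0571 after rescaling). In LinPos the members' median was no higher than that of all genes. The 21 members called higher there were near the 48.8% of all tested genes, so their excess over lower calls is not particular to the members. The largest rises in LinNegSca1Pos were of Gdf10 (log2 difference 5.21 ± 0.33, limma adjusted p = 1.53e-10), Fstl1 (log2 difference 4.72 ± 0.26, limma adjusted p = 2.48e-11) and Bmp1 (log2 difference 4.60 ± 0.20, limma adjusted p = 9.22e-13). In LinNegSca1Neg they were of Chrdl2 (log2 difference 5.35 ± 0.24, limma adjusted p = 4.19e-12), Id2 (log2 difference 4.10 ± 0.28, limma adjusted p = 6.21e-10) and Id3 (log2 difference 4.03 ± 0.60, limma adjusted p = 9.63e-06). In LinPos they were of Id2 (log2 difference 4.22 ± 0.28, limma adjusted p = 1.79e-10), Id1 (log2 difference 3.77 ± 0.36, limma adjusted p = 2.81e-08) and Id3 (log2 difference 3.35 ± 0.60, limma adjusted p = 6.12e-05). Id2 and Id3 also rose in LinNegSca1Pos (log2 difference 3.18, limma adjusted p = 3.46e-08 and log2 difference 4.42, limma adjusted p = 8.13e-06). They averaged 51.0 ± 11.6 and 296 ± 59.7 FPKM in LinNegSca1Pos and 99.2 ± 29.0 and 273 ± 184 FPKM in LinNegSca1Neg. In LinPos they averaged 110.5 ± 45.6 and 203 ± 191 FPKM, against 4.72 ± 1.03 and 12.8 ± 1.49 FPKM in Whole. Bmpr1b was lower in LinNegSca1Neg (log2 difference -0.43 ± 0.18, limma adjusted p = 0.0476), a call lost without any 1 of the Whole libraries (adjusted p from 0.0644 to 0.0891) and without LinNegSca1Neg replicates 1, 3 or 4 (adjusted p from 0.0945 to 0.111).

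As a check on the nested sort, LinNeg should lie between the fractions it was divided into if these were its only parts. LinNeg means lay between LinNegSca1Pos and LinNegSca1Neg for 23 of 43 tested members, above both for 11 and below both for 9, against 62.3%, 11.4% and 26.4% of all tested genes. Every LinNeg library was above every library of both for 1 member, Tgfb2, and below for none, against 0.676% and 0.648% of all tested genes.

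Other genes of the pathway were read from 4 lists beside the members. In LinPos against LinNeg, 25.8% of all tested genes fell and 25.3% rose. Of 13 tested other ligands and antagonists 10 fell and none rose, and of 16 activation factors and other receptors 10 fell and 1 rose. Of 16 response genes 9 fell and 3 rose, and of 15 Smads and intracellular regulators 5 fell and 4 rose. Skil, Bambi and Pmepa1 were counted both as response genes and as intracellular regulators. Dcn (decorin, a matrix proteoglycan that binds TGF-beta) averaged 326 ± 98.6 FPKM in LinPos and 7352 ± 940.4 FPKM in LinNeg (log2 difference -4.53 ± 0.27, limma adjusted p = 7.71e-11). Htra3, a secreted protease, averaged 4.86 ± 0.422 FPKM in LinPos and 136 ± 14.7 FPKM in LinNeg (log2 difference -4.54 ± 0.17, limma adjusted p = 3.5e-13). Tgif1, a repressor that binds Smads, averaged 60.2 ± 24.0 FPKM in LinPos and 29.5 ± 7.25 FPKM in LinNeg (log2 difference 0.96 ± 0.26, limma adjusted p = 0.00462), while Pmepa1, a TGF-beta target that turns the signal down, averaged 4.33 ± 0.552 FPKM in LinPos and 24.8 ± 5.01 FPKM in LinNeg (log2 difference -2.25 ± 0.18, limma adjusted p = 4.43e-09). Col3a1, the fibrillar collagen III gene, averaged 130.4 ± 23.1 FPKM in LinPos and 3429 ± 825 FPKM in LinNeg (log2 difference -4.69 ± 0.29, limma adjusted p = 1.33e-10). The log2 differences of the other genes named by the same rule were -1.30 for Smad3, -4.10 for Fmod, -3.59 for Bgn, -4.46 for Fbn1, -3.41 for Htra1, -4.52 for Postn and -4.47 for Col1a1, all lower in LinPos.

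In LinNegSca1Pos against LinNegSca1Neg, 22.4% of all tested genes rose and 32.1% fell. Of 13 other ligands and antagonists 6 rose and 2 fell, and of 16 activation factors and receptors 7 rose and 5 fell. Of 16 response genes 2 rose and 6 fell, and of 15 intracellular regulators 1 rose and 4 fell. Fbn1 (fibrillin-1, the microfibril that carries latent complexes) averaged 361 ± 79.2 FPKM in LinNegSca1Pos and 29.7 ± 6.32 FPKM in LinNegSca1Neg (log2 difference 3.56 ± 0.30, limma adjusted p = 2.32e-08). Nbl1, a BMP antagonist, averaged 336 ± 103 FPKM in LinNegSca1Pos and 40.2 ± 30.5 FPKM in LinNegSca1Neg (log2 difference 3.34 ± 0.71, limma adjusted p = 0.000695). Fmod (fibromodulin, a tendon-rich proteoglycan) averaged 63.8 ± 15.7 FPKM in LinNegSca1Pos and 864 ± 148 FPKM in LinNegSca1Neg (log2 difference -3.75 ± 0.31, limma adjusted p = 1.8e-08). Tagln, a smooth muscle gene that TGF-beta induces, averaged 32.1 ± 24.0 FPKM in LinNegSca1Pos and 933 ± 366 FPKM in LinNegSca1Neg (log2 difference -5.04 ± 0.45, limma adjusted p = 5.05e-08). The pericyte and smooth muscle marker sum, in which Tagln itself is counted, was 103 to 231 and 2489 to 4285 FPKM in the same groups. Hfe2 (hemojuvelin, a muscle co-receptor for BMPs) averaged 0.493 ± 0.358 FPKM in LinNegSca1Pos and 28.8 ± 12.9 FPKM in LinNegSca1Neg (log2 difference -4.24 ± 0.32, limma adjusted p = 6.13e-09), and 276 ± 19.6 FPKM in Whole. The log2 differences of the other genes named by the same rule were 3.41 for Htra3 and 3.38 for Col3a1, both higher in LinNegSca1Pos, and -1.62 for Nedd4l, -1.28 for Skil, -1.20 for Tgif1, -3.27 for Sostdc1 and -2.73 for Hey1, all lower. The part of smooth muscle, tendon and fibre RNA in these falls was not tested.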

How the data were processed

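RNA-seq libraries (19) of sorted mouse hindlimb muscle cells and of the unsorted material (Whole) were prepared with a stranded poly(A) mRNA kit, per the labels' protocols. The deposited table holds the authors' FPKM values for 23846 genes, with status words in place of numbers for 311 genes in every library and for 14 in some, and a lowest listed value of 0.001. bcl2fastq, TopHat2, Bowtie2, Cufflinks and the mm10 build are named in the submitters' processing notes; their versions, roles and filters, and the gene models, were not given in the sources used here. FPKM hold no counts, so depth is unknown beyond the relative size of 1 fragment, and no count test was run. Columns were matched to samples by name, and 4 further columns of values, which fit no sample by name, stayed unused.

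Genes reaching 1 FPKM in at least 3 libraries (14043) were tested on log2(FPKM + 1) with limma 3.58.1 (trend, empirical Bayes) in R 4.3.3, in 1 fit of all 5 groups. Benjamini-Hochberg adjustment ran over all tested genes, with a threshold of 0.05, for 7 comparisons; p-values are two-sided. Fold changes on this scale understate low genes. Tables and figures were made with Python 3.11.15, numpy 2.4.6, pandas 2.3.3 and matplotlib 3.10.9, and the fit was tested on simulated data. The members and lists were chosen with earlier results of these data known. Named members were those with the largest called difference in each direction (up to 6 in each of the first 2 comparisons, up to 3 in the others), the most abundant of each role, and paralogues whose highest fraction differed; of other pathway genes, up to 3 per list and comparison.

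Whether replicate numbers pair samples was judged from the correlation of same-numbered libraries' deviations from their group means. It was 0.441 to 0.704 for LinPos and LinNeg and 0.36 to 0.675 for LinNegSca1Neg and LinPos, and every pair passed the limit of 0.1, so the block was used there, although no label explains the numbers. Different-numbered libraries of the same set correlated as well, for example 0.546 for LinNegSca1Neg replicate 3 with LinPos replicate 4 against 0.36 with LinPos replicate 3, so the block also carries the difference between sets. It lay between -0.347 and 0.18 in the other 5 comparisons, which are not paired. Alternatives were other pseudocounts, filters and scalings, no variance trend, the replicate block, the compared groups only, each library set, and leaving out each library, which was added for the counts of highest fraction after the data were seen.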

Additional observations from a re-analysis of the deposited data

Results flagged for a closer look

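Of 143 sets of 4 libraries, each a member in a group, 8 held a library that stood apart from the other 3 by Dixon's test at 95%. Chance gives about 1 in 20, which is 7.15 of 143 sets. Acvr1 had 18.4 FPKM in LinPos replicate 4, against 12.6 to 13.6 FPKM in the other LinPos libraries. Tgfbr2 was highest in the same library, at 69.9 FPKM, against 44.9 to 46.7 FPKM. Bmpr1a stood apart in replicate 3 of 3 groups, low in LinNegSca1Neg (28.2 FPKM, against 35.6 to 36.3 FPKM) and in LinNeg (23.3 FPKM, against 31.7 to 32.5 FPKM) and high in LinPos (5.60 FPKM, against 2.96 to 3.12 FPKM). LinNeg replicate 1 had 14.2 FPKM of Bmpr2, against 4.52 to 4.56 FPKM, and 3.66 FPKM of Inhba, against 1.10 to 1.28 FPKM, in the other LinNeg libraries. Smad6 had 2.14 FPKM in Whole replicate 1, against 0.602 to 0.861 FPKM in the other Whole libraries.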

How the results depend on the processing

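Of 218 called differences of a member in a comparison, 173 kept their call in every alternative run that tested the gene and 45 lost it in at least 1. Each difference had 14 to 20 such runs, since runs whose filter dropped the gene were not counted. Lost calls were 9 of 31 in LinPos against LinNeg, 4 of 23 in LinNegSca1Pos against LinNegSca1Neg and 10 of 33 in LinPos against Whole. Direction turned in 4 cases, all against Whole and all after rescaling. With quantile normalization the log2 differences were -0.0705 for Bmp3 in LinNegSca1Neg, and -0.12 for Chrdl1 and -0.19 for Ltbp1 in LinPos; with median-of-ratios scaling it was -0.17 for Bmpr1a in LinNegSca1Neg. None of these passed the test. Members lower in LinNegSca1Neg against Whole numbered 3, and 6 with median-of-ratios scaling, 7 with quantile normalization and 6 with the compared groups only. The shares of all genes called lower under these settings are not given here, so the counts show no change particular to the members. The median log2 difference of all genes was 0.50, and 0.11 with median-of-ratios scaling and 0.02 with quantile normalization. The cause of the changed counts was not tested.

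Adding the replicate block changed the members higher in LinPos against LinNeg, 5 without it, to 8 with all groups and 9 with the compared groups only. These counts were not set against the share of all genes called with the block. In LinNegSca1Neg against LinPos the block added calls of Gdf15 (adjusted p = 0.029) and Id1 (adjusted p = 0.0212) with all groups, and of Id3 (adjusted p = 0.0364) with the compared groups only. Elsewhere the numbers did not pair the libraries.

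Leaving out 1 library gave 5 to 7 members higher and 23 to 26 lower in LinPos against LinNeg. It gave 12 to 13 and 8 to 13 in LinNegSca1Pos against LinNegSca1Neg, 21 to 23 and 7 to 9 in LinNegSca1Pos against LinPos, and 23 to 25 and 4 to 7 in LinNegSca1Neg against LinPos. Against Whole it gave 26 to 30 and 4 to 5 in LinNegSca1Pos, 28 to 31 and 2 to 3 in LinNegSca1Neg, and 18 to 20 and 9 to 11 in LinPos. Without counts, precision at low FPKM is unknown.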
